A study of Sus scrofa with 36 samples.

Results

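The cardiac calcium handling genes described here are a list of 8 named genes, RYR2, CASQ2, TRDN, JPH2, HRC, ATP2A2, PLN and SLC8A1. They were chosen by name and not by a rule on their measured values, although earlier results of these data were known. All 8 were present among the 20683 genes of the deposited tables, and they were followed through all 36 bulk RNA-seq libraries of pig (Sus scrofa) cells, which fall into 11 groups.

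The first set held pig fibroblasts (n = 4) and 3 undifferentiated clonal lines of pig induced pluripotent stem cells (PiPSC), cells brought back to a state from which they can form any tissue. The lines were clone 1 (labelled PiPS-EP1 minusPD c4 p11, n = 3), clone 2 (PiPS-EP5 minusPD minusA83 c12 p10, n = 4) and clone 3 (PiPS-EP5 minusPD minusA83 c18 p15, n = 4). The second set came from one further line, clone 8, with 3 libraries per group. Its undifferentiated cells, freed of their MEF feeder layer, were taken on day 0. A somite course followed: primitive streak or mesendoderm on day 1 (E8A100ch3), presomitic mesoderm on day 2 (S1LDN medium) and somite on day 3 (S2LDN medium). The other lineages were endothelial cells on day 6, beating cardiomyocytes on day 9 and neural progenitors on day 24. Every differentiated group derived from that single clone, each lineage was sampled on 1 day only, and no label said whether the libraries of a group were separate cultures. The p-values therefore reflect how far these libraries vary, and that variation may be technical.

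In a heart muscle cell, calcium that enters through surface channels opens the ryanodine receptor RYR2, and this releases the calcium held in the sarcoplasmic reticulum so that the cell contracts. Calsequestrin (CASQ2) stores that calcium, triadin (TRDN) ties calsequestrin to the receptor, junctophilin (JPH2) holds the surface and reticulum membranes together, and HRC is a histidine-rich calcium-binding protein of the reticulum. The pump SERCA2 (ATP2A2) returns calcium to the reticulum under the brake of phospholamban (PLN), and the sodium-calcium exchanger NCX1 (SLC8A1) expels it from the cell. SERCA2 is used by most cell types, whereas calsequestrin 2, triadin and phospholamban are known chiefly from muscle.

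Total estimated counts ran from 6877298 to 69879325 in the first set and from 1845333 to 9727315 in clone 8. Fibroblast libraries 1 and 2 (36738189 and 26120236 counts) were deeper than libraries 3 and 4 (7508792 and 6877298). Levels below are in TPM, counts scaled by gene length and by the total of the library, which can be set side by side between genes. The markers of the labelled cell type were present in the endothelial libraries, with PECAM1 at 276 to 295 TPM, in the fibroblasts, with COL1A1 at 8120 to 10700 TPM, and in the day 0 libraries, with POU5F1 at 666 to 797 TPM.

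A pair of libraries went against their labels, and they touch every result on the heart. Cardiac troponin T (TNNT2) stood at 4380 and 4410 TPM in cardiomyocyte libraries 1 and 3 but at 4.28 TPM in the library labelled cardiomyocyte 2. It stood at 5160 TPM in the library labelled neural progenitor 1 and at 3.38 and 2.48 TPM in neural progenitor libraries 2 and 3. The neural factor gene PAX6 ran the other way, at 254 TPM in the library labelled cardiomyocyte 2 and 0.19 TPM in the library labelled neural progenitor 1. Over all genes, the library labelled neural progenitor 1 had a Pearson r of 0.992 with cardiomyocyte library 1 and 0.838 with neural progenitor library 2. The libraries were kept in their labelled groups, each value is shown by library, and each test is given with all libraries and again without these 2.

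The release channel gene RYR2 (chromosome 14, 53652140 to 54406691 on Sscrofa11.1) was low outside the heart. It stood at 16.2, 1.57 and 10.9 TPM in cardiomyocyte libraries 1, 2 and 3 and at 15.6, 1.93 and 1.85 TPM in neural progenitor libraries 1, 2 and 3. The endothelial libraries held 1.48, 1.66 and 1.99 TPM, and the library labelled cardiomyocyte 2 and neural progenitor libraries 2 and 3 lay within that range. Undifferentiated day 0 cells held 0.32, 0.57 and 0.69 TPM, clones 1 to 3 between 0.05 and 0.75 TPM, and the 4 fibroblast libraries at most 0.01 TPM. In fibroblasts the gene was close to the limit of detection, with 2 counts over all 4 libraries.

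CASQ2 (chromosome 4, 104918204 to 104984019) showed the sharpest separation of libraries. It stood at 403, 0.17 and 363 TPM in the cardiomyocyte libraries and at 415, 0.13 and 0.97 TPM in the neural progenitor libraries. Day 0 cells held 0.18, 0.09 and 0 TPM. The fibroblasts came next after the high libraries, at 1.96, 3.23, 3.33 and 7.7 TPM, and no library of clones 1 to 3 exceeded 0.2 TPM.

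TRDN (chromosome 1, 39180544 to 39567245) followed the same 3 libraries at a lower level, at 50.4, 3.26 and 47.2 TPM in the cardiomyocyte libraries and 58.5, 3.75 and 8.26 TPM in the neural progenitor libraries. Somite libraries held 2.01, 2.67 and 2.34 TPM, above the day 0 libraries at 0, 0.06 and 0.53 TPM. Day 2 was uneven, at 0.39, 3.09 and 0.19 TPM. Its low values rest on few reads, 22.37 estimated counts in the highest day 2 library and 15.2 in neural progenitor library 3, and 32 of 36 libraries had a fractional count for TRDN, a count that RSEM estimates in part.

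JPH2 (chromosome 17, 46590302 to 46665326) differed from the other members in that its highest levels were in fibroblasts, at 50.9 and 53.3 TPM in libraries 1 and 2 and 20.5 and 21 TPM in libraries 3 and 4. The cardiomyocyte libraries held 20.9, 0 and 15.4 TPM and the neural progenitor libraries 21.3, 0.06 and 0 TPM. Somite libraries held 11.3, 8.01 and 7.73 TPM, while day 0 cells held 0.42, 0.21 and 0.47 TPM. JPH2 was the member that the library labelled cardiomyocyte 2 lacked altogether.

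HRC (chromosome 6, 54337348 to 54341638) was, unlike CASQ2 and PLN, well above 1 TPM in undifferentiated, somite and endothelial cells. It stood at 180, 0.78 and 165 TPM in the cardiomyocyte libraries and 216, 1.23 and 1.12 TPM in the neural progenitor libraries. Somite cells held 45.7, 27.5 and 38.6 TPM, endothelial cells 19.5, 25 and 34.3 TPM and the 11 libraries of clones 1 to 3 from 8.89 to 22.5 TPM. HRC was listed at 0 in all 4 fibroblast libraries.

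The pump gene ATP2A2 (chromosome 14, 31674659 to 31744981) was high in every library, between 84.4 and 543 TPM. It stood at 543, 96.1 and 431 TPM in the cardiomyocyte libraries and 493, 129 and 121 TPM in the neural progenitor libraries. The fibroblasts held 251, 237, 213 and 214 TPM. These 4 libraries lay above those of every other group except the 3 libraries that were high for the other members. The neighbouring gene ANAPC7 overlaps its end, and whether counting used strand is not known here, so that reads of the overlap could belong to either.

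PLN (chromosome 1, 43449354 to 43458925) lies within CEP85L. It stood at 174, 1.94 and 213 TPM in the cardiomyocyte libraries and at 216, 0 and 0 TPM in the neural progenitor libraries. The endothelial libraries held 4.82, 0.58 and 1.24 TPM, on 12 counts over the 3 libraries. PLN was listed at 0 in all day 0, day 2 and day 3 libraries and in clones 1 and 2. It is a short transcript, worth 2.84 counts per TPM in cardiomyocyte library 3 against 69.2 for RYR2, so that low levels of PLN were seen less well.

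SLC8A1 (chromosome 3, 99823503 to 100257306) had 3 levels rather than 2. Cardiomyocyte libraries 1 and 3 held 105 and 84.3 TPM and the library labelled neural progenitor 1 held 103 TPM. The library labelled cardiomyocyte 2 held 15.2 TPM and neural progenitor libraries 2 and 3 held 22.7 and 16.8 TPM. The exchanger was at 1.43 TPM or less in the other 30 libraries.

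**Figure D1:**
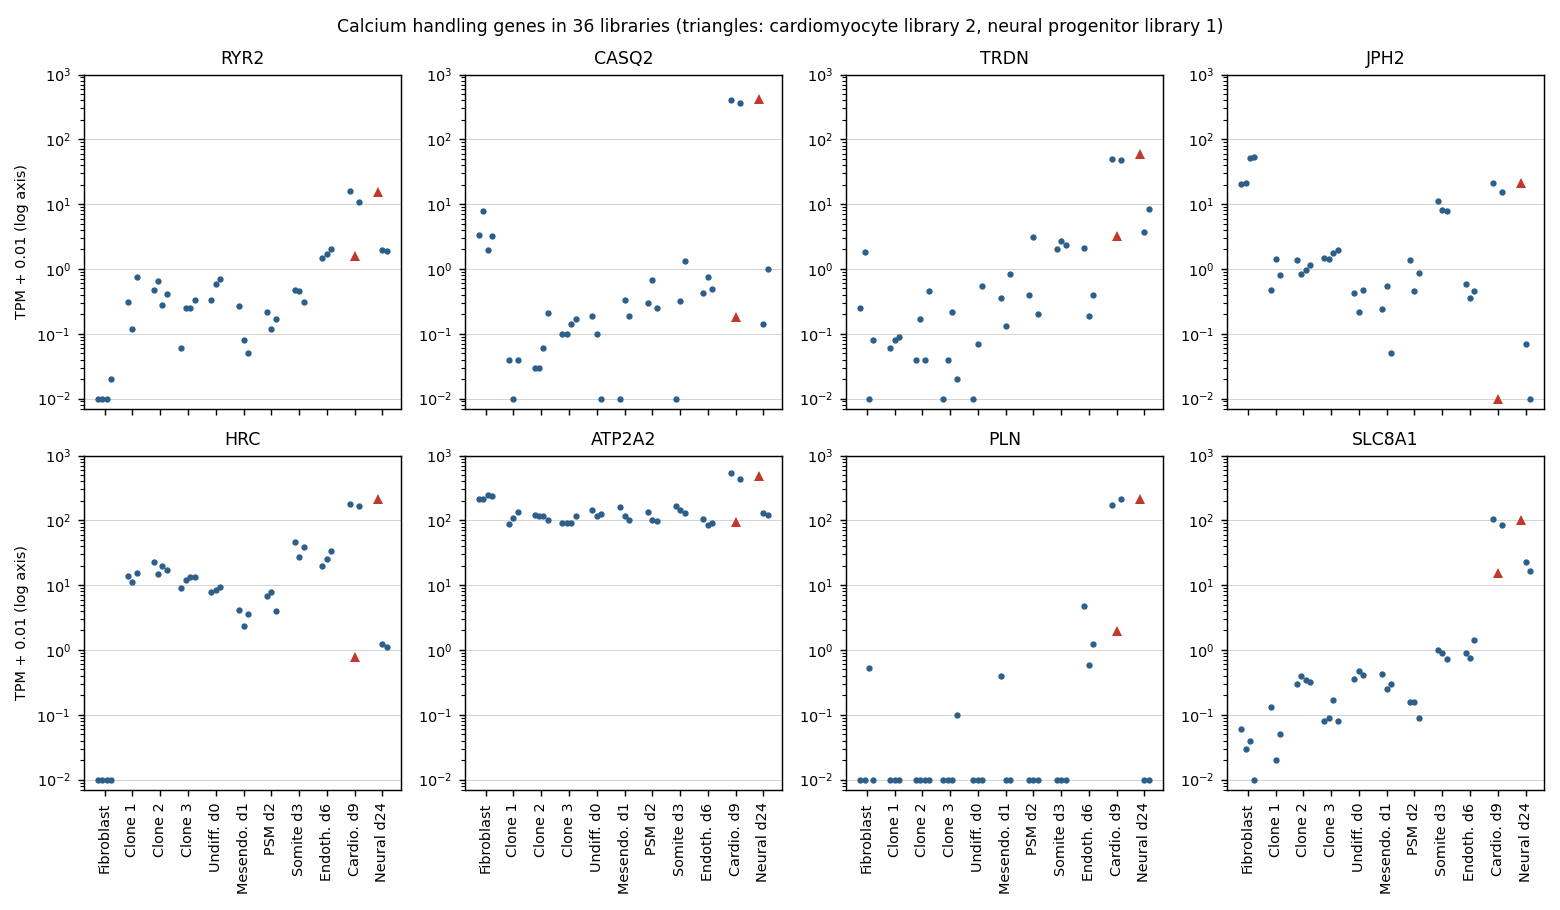
TPM + 0.01 (log axis) of the 8 genes in 36 libraries, 1 point per library, by group. Red triangles mark the libraries labelled cardiomyocyte 2 and neural progenitor 1: the first sits with the neural progenitor libraries (CASQ2 at 0.17 TPM), the second with cardiomyocyte libraries 1 and 3 (CASQ2 at 415 TPM).

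Cardiomyocytes were compared with undifferentiated day 0 cells to see which parts of the calcium machinery were higher on day 9. With all libraries as labelled, 8 of 8 members were higher and 0 lower at an adjusted p under 0.05 in edgeR's quasi-likelihood test, where 41.7% of all 14248 genes tested were called and 22.9% were called higher. The median log2 fold change was 6.59 over the members and 0.2 over all genes. When the 2 libraries were left out 8 of 8 were again higher, against 61.7% of genes called (30.3% higher), and the standard errors shrank. In bulk RNA, fewer cells of a type and less RNA per cell cannot be told apart. PLN and CASQ2 exceeded the filter's cutoff of 1.42 CPM in 4 libraries each, only 1 of which was neither labelled cardiomyocyte nor neural progenitor 1, so their passing the filter rested on the libraries in which they were high.

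The exchanger SLC8A1 rose by 7.76 ± 0.98 on the log2 scale (adjusted p = 1.15e-05), or 8.28 ± 0.25 without the 2 libraries (edgeR adjusted p = 2.48e-17). The release channel gene RYR2 rose by 4.54 ± 1.01 (adjusted p = 0.00185), or 5.07 ± 0.32 without them, and TRDN by 7.77 ± 1.69, or 8.34 ± 0.77. The pump gene ATP2A2 had the smallest rise, 1.9 ± 0.66 (adjusted p = 0.0297), or 2.4 ± 0.14 without the 2 libraries, from a level already high on day 0. HRC rose by 4.16 ± 1.57 (adjusted p = 0.0426), or 4.74 ± 0.25, and JPH2 by 5.42 ± 1.77 (adjusted p = 0.0215), or 6 ± 0.41. PLN had no count on day 0 and was at least 500-fold higher, against a floor of 3 counts over that group, or at least 746-fold without the 2 libraries. CASQ2 had 3 counts on day 0, which gave a ratio of 3720 (exact 95% counting interval 1270 to 18000), or 5560 (1900 to 27000) without the 2 libraries.

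With all libraries, the calls of ATP2A2, PLN, HRC and JPH2 did not hold when any one day 0 library was left out, with adjusted p from 0.0507 to 0.119 in edgeR. RYR2, CASQ2, TRDN and SLC8A1 passed in each of these fits. ATP2A2 and HRC also missed the threshold without cardiomyocyte library 1 (adjusted p = 0.117 and 0.0858) and without cardiomyocyte library 3 (0.0962 and 0.0908).

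Summed markers of fibroblasts and of smooth muscle were high in the same libraries, though not every marker was. The 8 fibroblast markers, all at 1 TPM or more there, summed to 3380 and 2500 TPM in cardiomyocyte libraries 1 and 3, to 24.9 TPM in the library labelled cardiomyocyte 2 and to 149 to 317 TPM on day 0. The matrix protein gene POSTN stood at 821 to 900 TPM in libraries 1 and 3 and at 0.3 to 0.88 TPM on day 0. PDGFRB stood at 6.53 and 3.46 TPM in libraries 1 and 3. The 7 smooth muscle markers summed to 4860, 19.4 and 3940 TPM in cardiomyocyte libraries 1, 2 and 3 and to 233 to 281 TPM on day 0. The smooth muscle sum was mostly ACTA2 (2280 and 1870 TPM in libraries 1 and 3) and TAGLN (2160 and 1700 TPM). MYH11 stood at 17 and 9.13 TPM there, and SMTN at 13.5 and 8.76 TPM against 12.3 to 14.7 TPM on day 0. In the fibroblasts themselves, where JPH2 stood at 20.5 to 53.3 TPM and CASQ2 at 1.96 to 7.7 TPM, these lists summed to 19800 to 37600 and 20100 to 43700 TPM. Their part in the rise of JPH2 and the other members was not tested.

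Against endothelial cells, another mesodermal derivative, 6 of 8 members were higher in cardiomyocytes with all libraries (27% of genes called, 12.7% higher), and PLN (adjusted p = 0.0656) and HRC (0.212) did not pass. As in the comparison with day 0, PLN and CASQ2 passed the filter through the libraries in which they were high. With the 2 libraries left out 8 of 8 were higher, against 53.7% of genes called (24.2% higher). The log2 differences were then 9.69 ± 0.39 for CASQ2, 7.26 ± 0.49 for PLN, 6.88 ± 0.23 for SLC8A1, 6.76 ± 0.69 for TRDN, 5.74 ± 0.41 for JPH2 and 3.32 ± 0.29 for RYR2. HRC (3.07 ± 0.24) and ATP2A2 (2.82 ± 0.14) differed least. With all libraries SLC8A1 (6.39 ± 0.92) and TRDN (6 ± 1.54) passed however 1 library was left out. RYR2, ATP2A2 and JPH2 missed the threshold when any one endothelial library or cardiomyocyte library 1 or 3 was left out (adjusted p from 0.0515 to 0.125). CASQ2 missed it without endothelial library 3 (0.054), and PLN passed without the library labelled cardiomyocyte 2 (0.0196).

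**Figure D2:**
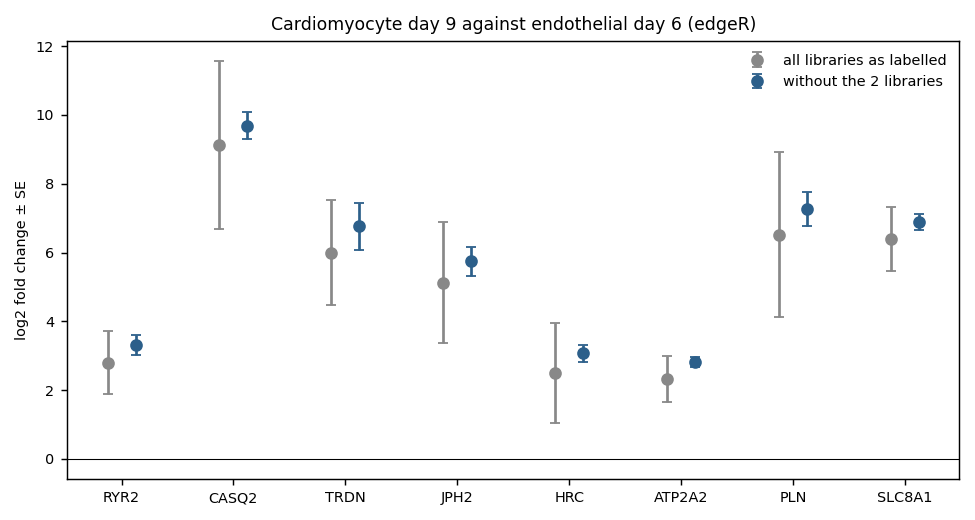
Log2 fold change ± SE (edgeR) of the 8 genes in cardiomyocyte day 9 against endothelial day 6, with all libraries as labelled (grey) and without the libraries labelled cardiomyocyte 2 and neural progenitor 1 (blue). The estimates move little, for example from 6.39 to 6.88 for SLC8A1, while the SE falls from 0.92 to 0.23.

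Between cardiomyocytes and neural progenitors as labelled, 0 of 8 members passed (0% of genes called), with 0 at an unadjusted p under 0.05 by edgeR and 0 adjusted calls by DESeq2 and by limma. Their log2 differences lay between 0.67 ± 0.86 (RYR2) and 0.92 ± 1.65 (CASQ2). In the fit without the 2 libraries 8 of 8 were higher in cardiomyocytes, where 63.7% of genes were called and 31.9% called higher. Here too, PLN and CASQ2 passed the filter through the libraries in which they were high. All 8 also passed when only the library labelled neural progenitor 1 was left out, but the share of all genes called there is not given here. Without the 2 libraries HRC was higher by 7.92 ± 0.41, TRDN by 4.16 ± 0.7, RYR2 by 3.61 ± 0.36, SLC8A1 by 3.04 ± 0.23 and ATP2A2 by 2.81 ± 0.16. PLN, with no count in neural progenitor libraries 2 and 3, was at least 284-fold higher. CASQ2, on 3 counts there, had a ratio of 2120 (724 to 10300), and JPH2, on 1 count, a ratio of 639 (114 to 25300).

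Neural progenitors against day 0 cells gave 6 members higher of 8 with all libraries (42.7% of genes called, 23.8% higher), but which members and in which direction turned on the library labelled neural progenitor 1. When the 2 libraries were left out 3 members were higher and 3 lower, against 63.8% of genes called (32% higher and 31.8% lower). SLC8A1 rose by 5.23 ± 0.24 (adjusted p = 1.95e-14), TRDN by 4.17 ± 0.96 and RYR2 by 1.46 ± 0.35. HRC fell by 3.18 (adjusted p = 1.63e-06), JPH2 by 3.09 and ATP2A2 by 0.42 on the log2 scale, where the fit with all libraries had put them at 3.46 ± 1.52, 4.64 ± 1.72 and 1.16 ± 0.65. In TPM the ATP2A2 levels overlapped, at 129 and 121 in neural progenitor libraries 2 and 3 and 144, 115 and 125 on day 0, so its fall in the count fit (TMM scaling) was not seen in TPM. PLN had no count in either group and CASQ2 had 3 counts in each. When only the library labelled neural progenitor 1 was left out, SLC8A1 and TRDN were the 2 members that passed, and the log2 values of HRC, JPH2 and ATP2A2 were -3.25, -3.17 and -0.49. The share of all genes called in that fit is not given here. With all libraries, PLN and JPH2 missed the threshold when any one day 0 library was left out (adjusted p from 0.0643 to 0.12), and HRC passed without neural progenitor library 2 or 3 (0.031 and 0.0386).

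The comparisons of cardiomyocytes and of neural progenitors with day 0 cells share their controls, and their values are given side by side only. In the fits without the 2 libraries, 3 members rose in both, with log2 differences of 8.28 and 5.23 for SLC8A1, 8.34 and 4.17 for TRDN, and 5.07 and 1.46 for RYR2.

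The paralogs of the members, the forms of the same proteins used by other tissues, showed which family member supplied most transcripts. RYR2 made up 97.6% and 97.4% of the summed TPM of RYR1, RYR2 and RYR3 in cardiomyocyte libraries 1 and 3, but 33.2% in the library labelled cardiomyocyte 2, and 28.2% and 41.8% in neural progenitor libraries 3 and 2. SLC8A1 made up 99.6% of the exchanger family in cardiomyocyte libraries 1 and 3 and 26.5% in the library labelled cardiomyocyte 2, where SLC8A2, an exchanger known from brain, stood at 33 TPM. Neural progenitor libraries 2 and 3 held 48.7 and 33.7 TPM of SLC8A2.

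In the junctophilin family JPH2 made up 96.9% and 94.8% in cardiomyocyte libraries 1 and 3 and 93.8% to 98.8% in fibroblasts. On day 0 it made up at most 1.64%, with JPH1, the form known from skeletal muscle, at 17.2 to 20 TPM. The neuronal form JPH4 stood at 51.3 TPM in the library labelled cardiomyocyte 2 and at 64.2 and 60.6 TPM in neural progenitor libraries 2 and 3. It was at 0 and 0.05 TPM in cardiomyocyte libraries 1 and 3. ATP2A2 made up between 88.2% and 100% of the SERCA family in every library, so in that family the same member led in each cell type.

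CASQ2 shared its family with CASQ1, the calsequestrin known from skeletal muscle, also in the heart libraries. CASQ1 stood at 91.4 and 90.2 TPM in cardiomyocyte libraries 1 and 3 and at 112 TPM in the library labelled neural progenitor 1, against 403, 363 and 415 TPM of CASQ2. CASQ2 made up 81.5%, 80.1% and 78.8% of the pair in those libraries. CASQ1 was tested as well and was 5.87 ± 1.29 higher than on day 0 (edgeR adjusted p = 0.00169), or 6.43 ± 0.39 without the 2 libraries.

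Over the list of 11 paralogs, 10 were tested against day 0, of which 2 were higher (CASQ1 and ATP2A1) and 2 lower (ATP2A3 and JPH1) with all libraries. Without the 2 libraries 2 were higher and 5 lower. These counts are close to the shares of all genes called, 41.7% and 61.7%. ATP2A3, a SERCA pump known from blood and epithelial cells, stood at 6.69 to 8.61 TPM on day 0 and at 0 and 0.05 TPM in cardiomyocyte libraries 1 and 3. JPH3 stood at 2.54 to 4.05 TPM on day 0 and at 0 and 0.06 TPM in those libraries. SLN, a small inhibitor of SERCA pumps, was listed at 0 in all 6 cardiomyocyte and neural progenitor libraries and was not tested.

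**Figure D3:**
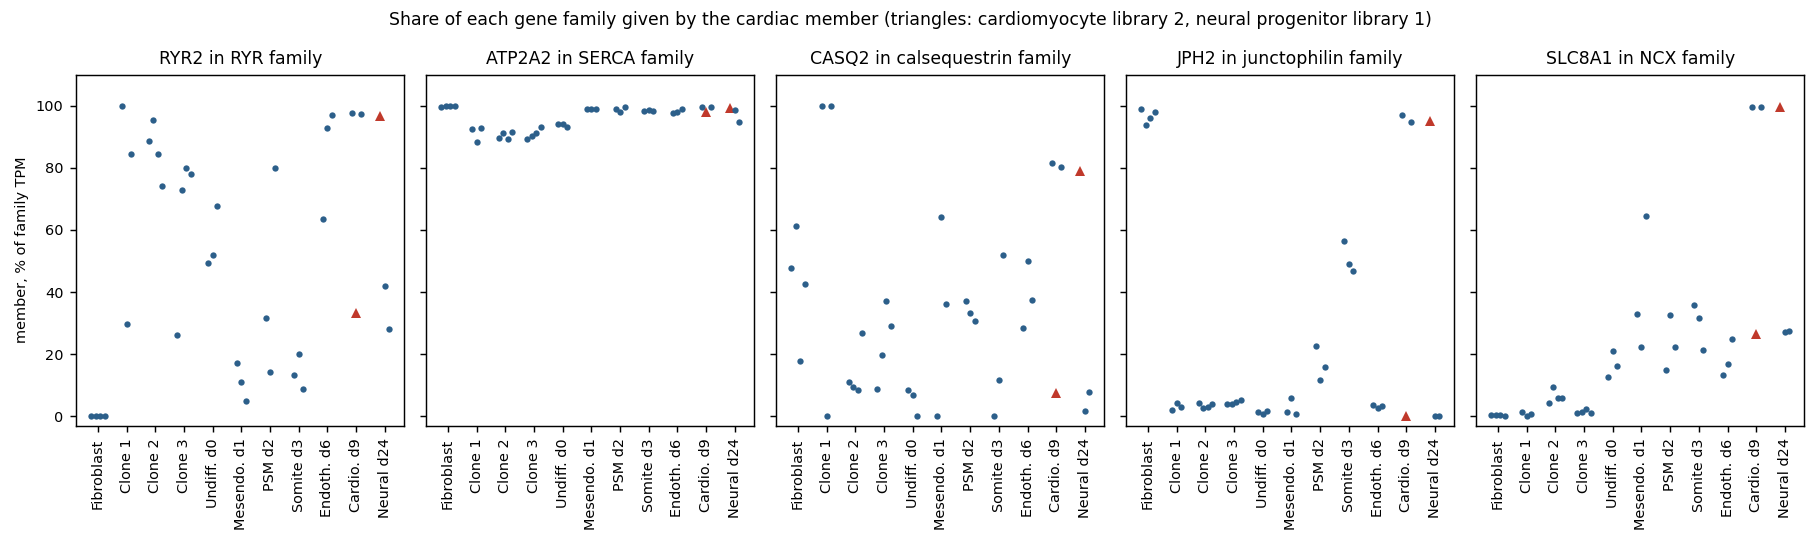
Share of its family's summed TPM (in percent) given by RYR2, ATP2A2, CASQ2, JPH2 and SLC8A1, 1 point per library, by group. Red triangles are the libraries labelled cardiomyocyte 2 and neural progenitor 1; JPH2 leads its family in fibroblasts (93.8% to 98.8%) and in cardiomyocyte libraries 1 and 3, and ATP2A2 leads its family in all 36 libraries. Shares in groups with under 1 TPM of a family rest on few counts.

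Among the libraries with high levels, some ratios between members were close and others less so. PLN per 100 TPM of its target pump ATP2A2 was 32.1 and 49.3 in cardiomyocyte libraries 1 and 3 and 43.8 in the library labelled neural progenitor 1. It was 2.02 in the library labelled cardiomyocyte 2, and 4.59, 0.687 and 1.35 in the endothelial libraries. Inhibitor and pump thus varied apart: ATP2A2 was present in all 36 libraries and PLN was listed at 0 in most of them.

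TRDN per 100 TPM of CASQ2 was 12.5, 13 and 14.1 in cardiomyocyte libraries 1 and 3 and the library labelled neural progenitor 1. JPH2 per 100 TPM of RYR2 was 129, 142 and 137 in the same order. SLC8A1 per 100 TPM of ATP2A2 separated the 6 libraries by little. It was 19.3, 15.8 and 19.6 in the cardiomyocyte libraries and 20.9, 17.5 and 13.9 in the neural progenitor libraries. The levels of both genes separated them more widely.

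Genes that work beside the members were read from lists of textbook function. Of 22 partners at the dyad, the contact between surface membrane and reticulum, or in the reticulum, 18 were tested against day 0, of which 9 were higher and 1 lower with all libraries (12 higher and 3 lower of 19 without the 2 libraries). Of all genes, 41.7% were called in the first fit, 22.9% higher, and 61.7% in the second, 30.3% higher. Sarcalumenin (SRL), a calcium-binding protein of the reticulum, stood at 12.8, 0.23 and 10.7 TPM in the cardiomyocyte libraries and at 0.37, 0 and 0.13 TPM on day 0 (log2 difference 5.78 ± 1.71, or 6.35 ± 0.65 without the 2 libraries). CACNB2, a subunit of the surface calcium channel, rose by 3.68 ± 0.96, and its libraries held 23.7, 1.57 and 16.2 TPM.

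AKAP6, which anchors protein kinase A, passed with all libraries too (5.74 ± 0.71) but did not follow the members. It stood at 13.3, 57.5 and 6.07 TPM in cardiomyocyte libraries 1, 2 and 3 and at 65.8 to 79.2 TPM in neural progenitor libraries 3 and 2. BIN1, which shapes the surface membrane folds, fell by 1.76 (2.41 without the 2 libraries). Without them CAMK2D, a calcium-dependent kinase, fell by 1.01 and PDE4D, a phosphodiesterase, by 0.47. PPP1R3A, a subunit that targets a phosphatase to glycogen and reticulum, entered the test there only and stood at 0.65 and 0.41 TPM in cardiomyocyte libraries 1 and 3.

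Of 16 calcium genes of the endoplasmic reticulum and surface of most cells, 3 were higher and 2 lower than on day 0 with all libraries (5 and 4 without the 2 libraries). Both counts are a smaller share than that of all genes called, 41.7% and 61.7%. The inositol trisphosphate receptor gene ITPR3, a release channel of non-muscle cells, stood at 0.19 to 0.23 TPM in the 3 cardiomyocyte libraries and at 11.8 to 16.9 TPM on day 0 (log2 difference -5.7 ± 0.58, adjusted p = 1.07e-06). ITPR2 fell by 1.87, and without the 2 libraries the store sensor gene STIM1 fell by 2.29. The Golgi pump gene ATP2C1 rose by 1.12 ± 0.27, calmodulin gene CALM2 by 1.06 ± 0.22 and the surface pump gene ATP2B4 by 0.77 ± 0.26, although its libraries overlapped in TPM (25.2 to 43.6 against 22 to 34.5 on day 0).

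Of 8 genes of mitochondrial calcium uptake, 2 were higher and 3 lower than on day 0 with all libraries, where 41.7% of all genes were called. SMDT1, a small subunit of the uptake channel, stood at 116 to 164 TPM against 27.1 to 39 TPM on day 0 (2.34 ± 0.48), and the regulator gene MICU2 rose by 0.41 ± 0.14. With the 2 libraries left out these log2 differences were 2.62 ± 0.25 and 0.5 ± 0.14, but in TPM the MICU2 libraries overlapped, at 212 and 180 in cardiomyocyte libraries 1 and 3, 246 in the library labelled cardiomyocyte 2 and 174 to 197 on day 0. The pore gene MCU fell by 1.33, LETM1 by 1.97 and MCUR1 by 1.03. All 3 of these kept a lower level without the 2 libraries (-0.98, -2.46 and -0.82).

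Endothelial cells against day 0 gave 0 of 8 members past the threshold with all libraries (19.3% of genes called), 0 at an unadjusted p under 0.05 by edgeR, 1 by DESeq2 (PLN, on 12 counts, where 25.8% of genes were called) and 0 by limma. Without the 2 libraries, which belong to neither group but enter the shared estimate of spread, 5 were higher and 1 lower (45.1% of genes called, 24.3% higher and 20.8% lower). RYR2 rose by 1.75 ± 0.3, SLC8A1 by 1.39 ± 0.24 and HRC by 1.67 ± 0.23, and ATP2A2 fell by 0.43. PLN was at least 4.4-fold higher at the floor of 3 counts, and CASQ2 had a ratio of 6.6 (1.93 to 35) on 3 day 0 counts. JPH2 (0.26 ± 0.5) and TRDN (1.58 ± 1.12) did not pass. The cardiomyocyte markers summed to 140 to 174 TPM in the endothelial libraries and 161 to 182 TPM on day 0, with NKX2-5 at 0.39 to 1.11 and 0 to 0.75 TPM. Their part in the result was not tested.

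Along the somite course HRC, JPH2 and SLC8A1 were at their highest on day 3, while ATP2A2 lay between 97.2 and 167 TPM throughout and PLN and CASQ2 were low on every day. Day 1 against day 0 had 0 of 8 past the threshold with all libraries (12.7% of genes called; 0 at an unadjusted p under 0.05, 1 by DESeq2, PLN, which rests on 1 count in 1 library, where 18.8% of genes were called, and 0 by limma). With the 2 libraries left out RYR2 fell by 1.86 and HRC by 1.13 (37.4% of genes called, 19.5% lower). HRC stood at 7.8, 8.51 and 9.34 TPM on day 0 and at 4.08, 2.34 and 3.61 TPM on day 1, with no overlap.

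Day 2 against day 1 also had 0 of 8 (7.39% of genes called; 0 unadjusted by edgeR, 1 by DESeq2, PLN lower, on that same count, where 12.1% of genes were called, and 0 by limma). In the fit without the 2 libraries HRC (0.85 ± 0.28) and JPH2 (1.74 ± 0.49) rose and SLC8A1 fell by 1.39 (23.9% of genes called, 12.3% higher and 11.5% lower). JPH2 stood at 1.35, 0.44 and 0.87 TPM on day 2 and at 0.23, 0.54 and 0.04 TPM on day 1, so its libraries overlapped.

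On day 3, SLC8A1 passed against day 2 with all libraries (2.57 ± 0.91, adjusted p = 0.0497, 23.7% of genes called, 12.5% higher). This call missed the threshold when any one of the 6 libraries compared was left out (adjusted p from 0.071 to 0.168). Without the libraries labelled cardiomyocyte 2 and neural progenitor 1, 4 members were higher and 0 lower (48.4% of genes called, 25.4% higher). These were JPH2 (3.1 ± 0.36), SLC8A1 (2.6 ± 0.33), HRC (2.37 ± 0.25) and RYR2 (1.12 ± 0.44, adjusted p = 0.0381). SLC8A1 stood at 0.15, 0.15 and 0.08 TPM on day 2 and at 1, 0.89 and 0.71 TPM on day 3, and HRC at 6.77, 7.81 and 3.98 TPM and then 45.7, 27.5 and 38.6 TPM. Neither gene's libraries overlapped between the 2 days, and neither did those of JPH2 or RYR2. The share of all genes without such overlap is not given here. RYR2 on day 3 (0.3 to 0.47 TPM) overlapped its day 0 level (0.32 to 0.69 TPM).

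The somite cells carried muscle markers at the same time. The cardiomyocyte markers summed to 2130 to 2610 TPM on day 3 and 289 to 451 TPM on day 2, and the smooth muscle markers to 4590 to 5530 TPM and 62.3 to 74 TPM. The cardiac sum was mostly TNNC1, at 1620 to 2140 TPM on day 3, with TNNT2 at 2.18 to 6.15 and NKX2-5 at 0 to 1.01 TPM. The smooth muscle sum was mostly TAGLN (3430 to 4080 TPM) and ACTA2 (788 to 1020 TPM), with MYH11 at 4.23 to 4.55 TPM. Their part in the rise of JPH2, HRC, SLC8A1 and RYR2 was not tested. CASQ2 stood at 0, 0.31 and 1.32 TPM and PLN at 0 in all 3 somite libraries.

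**Figure D4:**
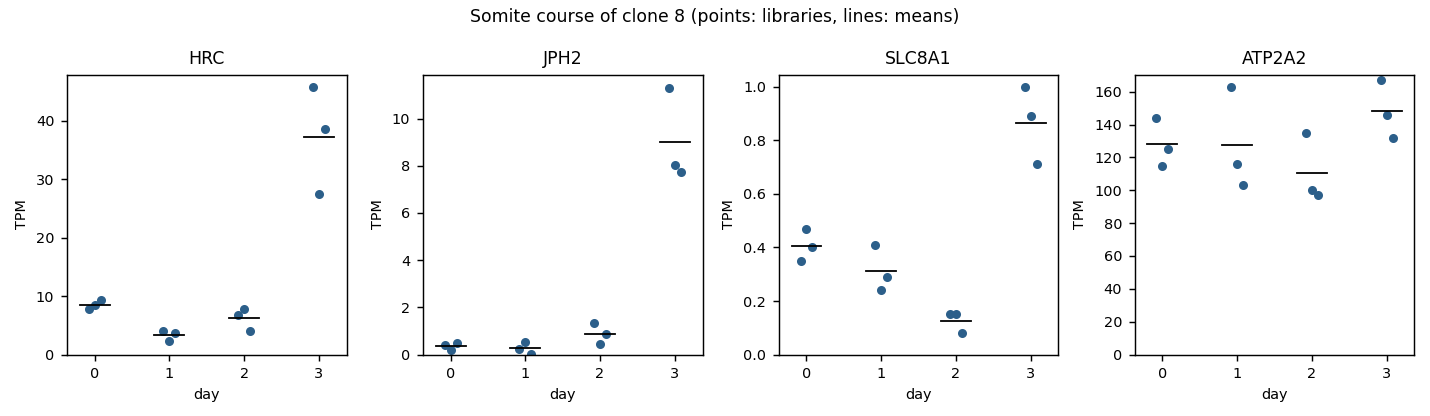
TPM of HRC, JPH2, SLC8A1 and ATP2A2 in clone 8 on days 0, 1, 2 and 3 of the somite course, 1 point per library (n = 3 a day) with the mean as a line. HRC, JPH2 and SLC8A1 are higher in all 3 day 3 libraries than in any earlier one, while ATP2A2 overlaps between days.

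Clones 1 to 3 were compared with fibroblasts to see which members differed between the pluripotent lines and that differentiated cell type. Of 6 members tested, 3 were higher in the clones (RYR2, SLC8A1 and HRC) and 3 lower (ATP2A2, CASQ2 and JPH2), where 74.6% of all 14660 genes were called, 38.6% higher and 35.9% lower. The median log2 difference was 0.5 over these 6 and 0.11 over all genes. PLN and TRDN did not pass the filter. A member that passed is thus set against a background in which most genes did.

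JPH2 stood at 0.46 to 1.92 TPM in the 11 clone libraries and at 20.5 to 53.3 TPM in fibroblasts, a log2 difference of -5.18 ± 0.29 (edgeR adjusted p = 3.52e-11). The fibroblast libraries fell into 2 pairs of different depth, and JPH2 differed between the pairs, at 50.9 and 53.3 TPM against 20.5 and 21 TPM. Against libraries 1 and 2 alone the log2 difference was -5.7 ± 0.21, and against libraries 3 and 4 alone it was -4.09 ± 0.25. The smooth muscle markers summed to 20100 to 43700 TPM in fibroblasts and to 433 to 953 TPM in the clones. Their part in the JPH2 difference was not tested.

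CASQ2 was lower in the clones (-6.18 ± 0.62; -5.66 ± 0.78 and -6.48 ± 0.82 against the 2 pairs of fibroblast libraries), and so was ATP2A2 (-1.24 ± 0.12; -1.39 ± 0.11 and -0.93 ± 0.11). HRC, with no count in fibroblasts, was at least 334-fold higher in the clones at the floor of 3 counts over the group. RYR2 had a ratio of 78.9 (21.8 to 652) on 2 fibroblast counts. SLC8A1 was higher by 2.23 ± 0.83 (adjusted p = 0.0219), at 0.01 to 0.38 TPM against 0 to 0.05 TPM, with overlapping libraries. Its call was lost against fibroblast libraries 3 and 4 alone (1.76 ± 0.98, adjusted p = 0.124) and without fibroblast library 2 (1.74, adjusted p = 0.0527).

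Low levels of TRDN outside the heart were set beside those of skeletal muscle genes. The cardiomyocyte group and the library labelled neural progenitor 1 were left out, and the skeletal muscle sum took in 10 genes without ACTA1. The library of a group with the most TRDN also had the highest such sum in 7 of 10 groups. This count depends on leaving out ACTA1. In clone 2 libraries 4 and 3 the sums were 6.62 and 6.17 TPM, with ACTA1 at 13.5 and 17.9 TPM. The number that chance gives in groups of 2 to 4 libraries is not given here. On day 2 the sums were 89.5, 187 and 6.88 TPM, where TRDN stood at 0.39, 3.09 and 0.19 TPM. Neural progenitor libraries 2 and 3 had sums of 106 and 641 TPM beside TRDN at 3.75 and 8.26 TPM. In fibroblasts, library 4 had a sum of 62.2 TPM and TRDN at 1.79 TPM, against sums of 8.63 to 11.9 TPM and at most 0.24 TPM of TRDN in the other 3.

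The skeletal muscle genes present included late genes such as CKM, muscle creatine kinase, at 32.5 TPM in day 2 library 2 and 150 TPM in neural progenitor library 3. In these libraries TNNC2 stood at 54.9 and 129 TPM, and ACTA1, left out of the sums, at 103 and 347 TPM. MYOD1, which defines skeletal muscle precursors, was at 0 in all 36 libraries. Cardiomyocyte libraries 1 and 3 had sums of 118 and 120 TPM, about that of the library labelled cardiomyocyte 2 (115 TPM), while their TRDN was 50.4 and 47.2 against 3.26 TPM. The part of skeletal muscle RNA in the lower TRDN values was not tested.

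**Figure D5:**
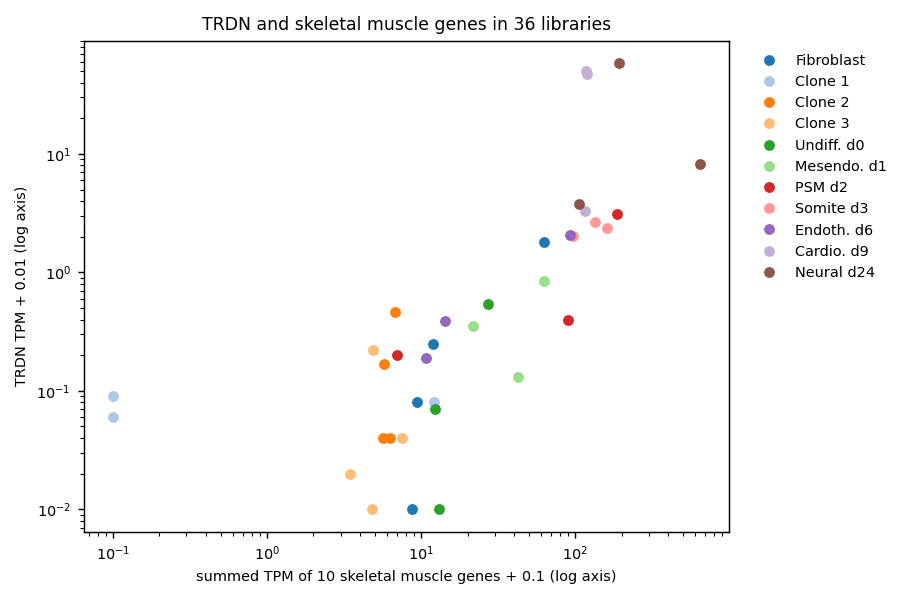
TRDN (TPM + 0.01, log axis) against the summed TPM of 10 skeletal muscle genes without ACTA1 (+ 0.1, log axis), 1 point per library, coloured by group. The points with TRDN at 47.2, 50.4 and 58.5 TPM stand above libraries of similar skeletal muscle sum.

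The genes whose pattern over the 36 libraries was most like that of the members were found by the Pearson r of their log2(TPM + 1) with the members' mean z-score, among 11883 genes that reached 10 TPM. The r describes these libraries only and is set largely by 3 of them, which share high levels of many genes. The first was LRRC10 (r = 0.98), a leucine-rich repeat protein of the cardiac Z-disc and dyad, at 308 and 234 TPM in cardiomyocyte libraries 1 and 3, 299 TPM in the library labelled neural progenitor 1 and at most 1.43 TPM elsewhere. FSD2, SMYD1, CCDC141 and TXLNB followed (0.974 to 0.973). SMYD1, a methyltransferase of striated muscle, stood at 113, 114 and 142 TPM in those 3 libraries.

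MYBPC3 (0.972), a thick filament protein, MYL4 (0.971), an atrial and fetal myosin light chain, VCAM1 (0.97), an adhesion receptor, LOC102164667 (0.969) and TRIM55 (0.969) completed the 10. VCAM1 reached 2310, 2220 and 2310 TPM in the 3 libraries and at most 7.4 TPM in the others. Its level in the 3 libraries was well above that of any member. On log2(TPM + 0.1) 5 of these 10 remained, without the 2 libraries 9 did, and by Spearman's rank correlation 0 did.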

How the data were processed

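Bulk RNA-seq of 36 libraries was analysed. Per the labels, total RNA from a QIAGEN kit went into LM-seq libraries. RSEM 1.2.3, Bowtie 1.2.3, bcl2fastq and the build Sscrofa11.1 are named in the submitters' processing notes. The authors deposited 1 table of expected counts (reads per gene, in part estimated by RSEM) and 1 table of TPM (counts over effective length, scaled to one total per library).

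Groups and replicate numbers came from the labels. None of 42 replicate pairs was identical (lowest chi-square per degree of freedom 3.533). Expected counts were rounded, which moved library totals by 0.000949% on average and single low fractional counts by more. The rounded counts were tested in R 4.3.3 with edgeR 4.0.16 (quasi-likelihood test, TMM, filterByExpr with a minimum count of 10, Benjamini-Hochberg over all genes, threshold 0.05). One fit covered 15 libraries of fibroblasts and clones 1 to 3, and one covered 21 libraries of clone 8. An SE is the log2 fold change over the square root of F. The self-test on simulated data required that most of the changed genes be recovered, and this was met. It used the same spread for every gene and libraries alike within a group. It therefore does not cover genes at few counts or groups with a doubted library. Intervals and floors of 3 counts cover counting error only. Families, ratios and likeness were computed from TPM in Python 3.11.15.

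All 8 members were named in every group. From each other calcium list up to 3 genes with the largest change up and 3 down among those past the threshold against day 0 were named, with and without the 2 doubted libraries, together with the 10 genes most like the members and markers used to check labels. SLN, JPH3, JPH4 and SLC8A2 values named beyond this rule were chosen after they were seen. Members and lists were chosen with earlier results of these data known. Alternatives were DESeq2 1.42.0, RLE scaling, no filter, limma 3.58.1 on log2(TPM + 1) and log2(TPM + 0.1), only the groups compared, a replicate block, subsets of fibroblast libraries and leaving out libraries. Coordinates are RefSeq's. Promoter sequences were not analysed here. One gene of the mitochondrial list is not reported here.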

Additional observations from a re-analysis of the deposited data

Results flagged for a closer look

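In groups of 4 libraries, single libraries stood far from the others (the gap to the nearest over the group's range above Dixon's 95% value) in 8 of 22 gene and group pairs. The 1 in 20 that chance gives holds for normally distributed values; most of these lie near 0 TPM, and where 3 libraries are at 0 any value above 0 stands apart by construction, so nothing is read from their number. TRDN was at 1.79 TPM in fibroblast library 4 against 0 to 0.24 in the others, and at 0.21 TPM in clone 3 library 3 against 0 to 0.03. ATP2A2 was at 117 TPM in clone 3 library 4 against 89.9 to 91.6, the sole one of these at a high level. PLN was at 0.52 TPM in fibroblast library 1 and at 0.09 TPM in clone 3 library 4, each against 0. RYR2 was at 0.01 TPM in fibroblast library 2 against 0, CASQ2 at 0.2 TPM in clone 2 library 4 against 0.02 to 0.05, and SLC8A1 at 0.16 TPM in clone 3 library 3 against 0.07 to 0.08. Groups of 3 libraries, which include all of clone 8, could not be examined this way.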

How the results depend on the processing

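Of 779 values of single members under alternatives, 644 kept direction and call, 83 fell below the threshold, 45 passed it and 7 reversed. The number of members called (8, 6, 0, 0, 6, 0, 0, 1 and 6 in the order cardiomyocyte against day 0, against endothelial, against neural progenitor, endothelial against day 0, neural progenitor against day 0, day 1, day 2, day 3 against the day before, and clones against fibroblasts) moved as follows. For most of these settings the share of all genes called is not given here. A change in the count is thus not read as a result about the members. For cardiomyocytes against day 0 the number of members called was 6 by DESeq2, 7 without the filter, 5 by limma at either pseudocount, 3 with only the groups compared and 4 to 8 with 1 library left out. Against endothelial cells it was 5 by DESeq2, 3 by limma at either pseudocount, 2 with only the groups compared, and 2 to 7. Against neural progenitors it was 8 without the libraries labelled cardiomyocyte 2 and neural progenitor 1, and 0 to 8. For endothelial against day 0 it was 1 by DESeq2, 4 with only the groups compared and 6 without the 2 libraries. For neural progenitors against day 0 it was 5 by DESeq2, 3 by limma at either pseudocount, 2 with only the groups compared, and 2 to 7. For day 1 it was 1 by DESeq2, 2 with only the groups compared and 2 without the 2 libraries. For day 2 it was 1 by DESeq2 and 3 without the 2 libraries. For day 3 it was 0 without the filter and by limma on log2(TPM + 1), 3 with only the groups compared, 4 without the 2 libraries and 0 to 0. For clones it was 7 without the filter, and 5 to 6. DESeq2 gave no adjusted p for CASQ2 and HRC in clone 8. Reversed, for neural progenitors against day 0, were HRC by limma on log2(TPM + 0.1) (-0.29), ATP2A2, HRC and JPH2 without the library labelled neural progenitor 1 (-0.49, -3.25 and -3.17) and without both libraries (-0.42, -3.18 and -3.09). With 1 library left out these 3 ranged from -0.49 to 1.56, -3.25 to 4.02 and -3.17 to 5.21. Of the 10 genes most like the members, 5 remained on log2(TPM + 0.1), 0 by Spearman and 9 without the 2 libraries. Except where fewer libraries entered, the cause was not tested. Replicate numbers were not used to pair libraries in the main fits. Deviations of same-numbered libraries correlated at -0.74 to 0.87 in clone 8 (median 0.01, other numbers -0.01). They correlated at -0.12 to 0.08 in the first set (median 0, other numbers 0). In clone 8, 12 of 63 same-numbered pairs lay over 0.1, and the 2 doubted libraries entered these values. With the replicate block 7, 4, 0, 0, 5, 0, 0, 1 and 5 members were called in the same order. It lost HRC in cardiomyocytes against day 0, RYR2, CASQ2 and JPH2 against endothelial cells (and gained PLN), JPH2 in neural progenitors against day 0, and SLC8A1 in clones against fibroblasts (adjusted p = 0.0536). PLN, short and at few counts outside the heart libraries, is the member that depth limits most.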
